A study of Mus musculus with 12 samples.

Results

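Naive CD8+ T cells from the spleens of 3 mice of wild type genotype were sorted by surface markers and cultured at 100000 cells per well for 6 h on immobilized anti-CD3ε (145-2C11), with a second coated antibody that was either 2C7, an agonist against LAIR-1, or its isotype control, each at 2.5 µg/ml. The comparison described here is anti-LAIR-1 against isotype in these CD3-stimulated cells, which took 6 of the 12 libraries of the series, 1 per mouse and antibody, paired by mouse. The other 6 libraries are the same cells of mice 1 to 3 left without anti-CD3, in wells with isotype control and either anti-LAIR-1 or isotype. The study's mice were adults, with no age given per animal in the labels, and the labels name no collagen, other cells or costimulation in these wells of purified T cells on coated plastic. Each well is 1 culture of 1 mouse. With mouse as a block, p-values measure how the difference between the antibodies varied over the 3 mice, which holds both animal and culture. RNA was read by CEL-seq near the polyadenylated end of each transcript and deposited as raw read counts per gene.

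LAIR-1 is an inhibitory receptor of leukocytes that binds collagens and signals through immunoreceptor tyrosine-based inhibitory motifs, which recruit phosphatases. A naive CD8+ T cell that is triggered through CD3 leaves quiescence: it silences genes of recirculation and growth restraint, induces cytokines, chemokines and cytolytic proteins, and builds ribosomes for later division. A change of transcript level in a bulk library cannot separate fewer cells of a kind from less RNA per cell.

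The 6 libraries held between 3478294 and 7725545 counts, on 10816 to 11838 genes, and 3 counts corresponded to 0.388 to 0.862 CPM, the unit of level used here, in which counts are scaled to library size. Mitochondrial transcripts took 11.5% to 13.2% of the counts. Markers of most other cells were at or near 0: summed CD4 T cell markers reached 2.29 CPM, NK cell markers 1.23 CPM, B cell markers 8.62 CPM and dendritic cell markers 3.74 CPM, and Csf1r, Blnk, Flt3 and Pf4 had no read in any of the 6. Myeloid markers summed to 28.7 to 40.1 CPM with isotype and 35.5 to 45.1 CPM with anti-LAIR-1. Most of that sum was Cst3, at 26.2, 35.4 and 36.6 CPM with isotype and 31.2, 40.5 and 39.9 CPM with anti-LAIR-1. Only 1 B cell and 1 myeloid marker had enough reads to be tested, and neither was called. No CD4 T, NK or dendritic cell marker could be tested. Lyz2, S100a8, S100a9, Ighm, Igkc and Pax5 were not among the gene symbols of the counts. The 10 markers of memory-phenotype CD8+ T cells summed to 409 to 438 CPM with isotype and 381 to 418 CPM with anti-LAIR-1; of 7 tested, Klrd1 was called higher and Nkg7 and Eomes lower, and their part in the results was not tested. The 8 naive CD8 T cell markers summed to 1360 to 1460 CPM with isotype and 1709 to 1983 CPM with anti-LAIR-1, and 5 of the 8 were called higher. Lair1 itself (chr7:4003402-4063204, GRCm38) was barely read: 2, 7 and 6 counts with isotype and 2, 2 and 0 with anti-LAIR-1, too few to be tested.

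In CD3-stimulated cells anti-LAIR-1 went with higher transcripts of several genes of recirculation and quiescence and lower transcripts of several effector molecules. Of 8547 protein-coding genes tested by edgeR's quasi-likelihood test with mouse as a block, 538 (6.29%) passed an adjusted p-value of 0.05; 361 (4.22%) were higher and 177 (2.07%) lower with anti-LAIR-1. The higher genes had larger changes, with a median log2 difference of 0.68 against -0.45 for the lower ones. A change over 2-fold was found for 76 higher and 18 lower genes. In 516 of the 538 the libraries of both groups did not overlap, against 24.4% of all genes tested, and 1718 genes (20.1%) had an unadjusted p under 0.05. Fewer genes were called with 1 mouse left out, in fits of fewer libraries: 226 without mouse 1, 337 without mouse 2 and 439 without mouse 3. DESeq2's Wald test with the same block gave 221, all among the 538.

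**Figure D1:**
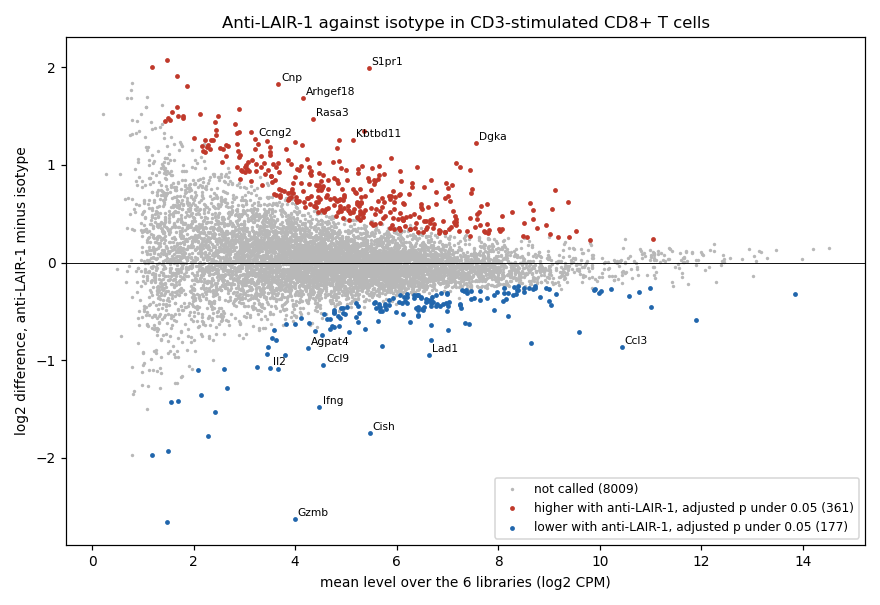
Each point is 1 of the 8547 protein-coding genes tested; the x axis is its mean level over the 6 CD3-stimulated libraries (log2 CPM) and the y axis its log2 difference, anti-LAIR-1 minus isotype. The 361 red genes were called higher and the 177 blue genes lower. The median log2 difference was 0.68 for red and -0.45 for blue genes. S1pr1 at 1.99 and Gzmb at -2.63 are among the labelled genes.

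To show what the changed genes do, they were sorted into 44 functional lists, which hold 166 of the 538, and 6 further groups made from the remaining 372 after their values were seen. These 6 groups hold called genes only, so their counts of higher and lower genes are not separate evidence. Of all 538 called genes 67.1% were higher. In 3 lists, glycolysis, mitochondrial ribosomal proteins and the nuclear-encoded respiratory chain, no member was called. More members were called higher than lower in the lists of recirculation, quiescence, the naive state, actin, CD3 signalling and interferon response, and more lower than higher in those of cytokines, chemokines, granule proteins, STAT feedback genes and ribosome assembly.

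**Figure D2:**
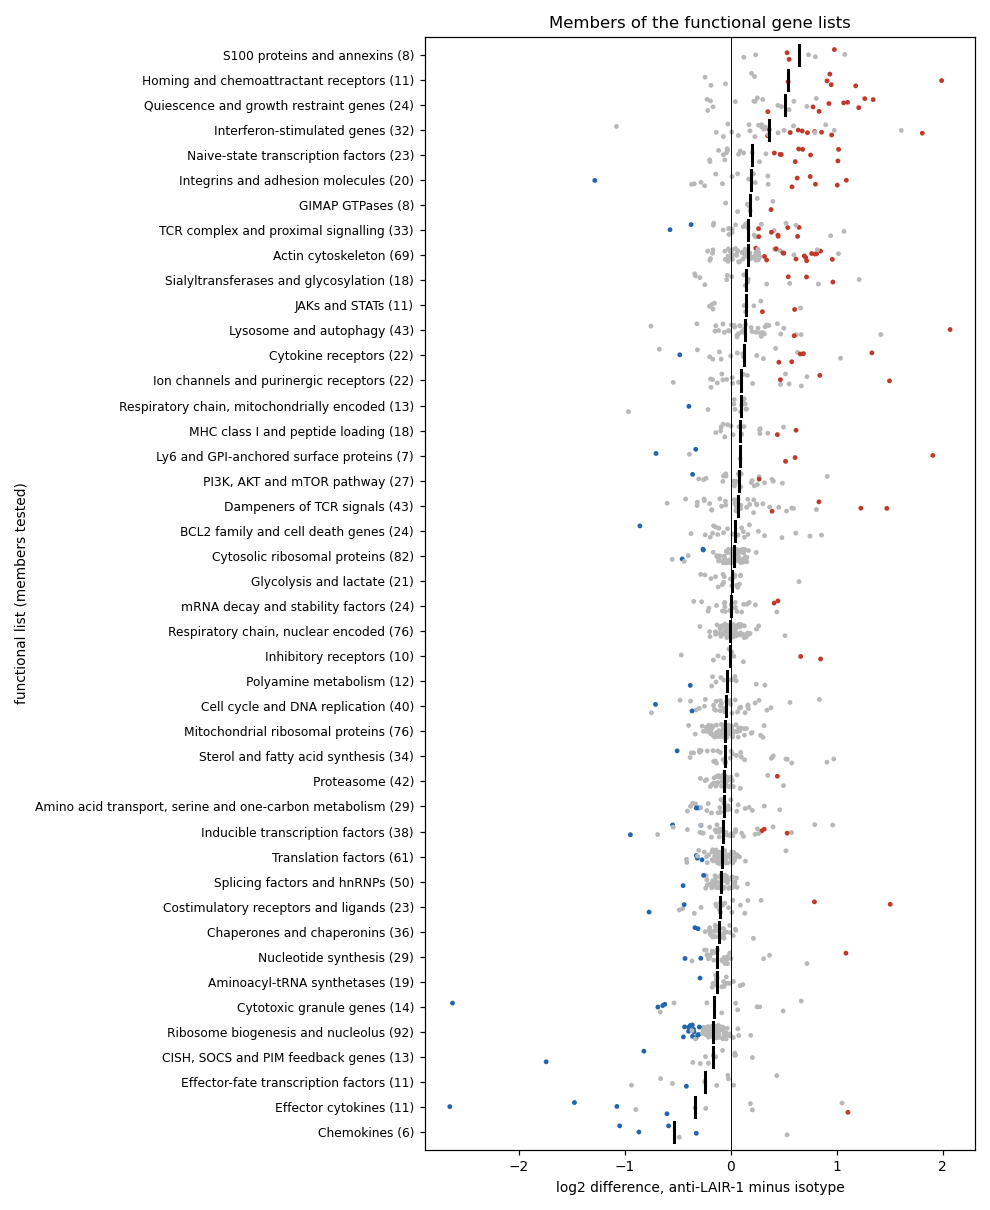
Each point is a tested member of 1 of the 44 functional lists, placed by its log2 difference, anti-LAIR-1 minus isotype (x axis); red and blue points were called higher and lower, grey points were not called, and the black bar is the list's median. Homing receptors, quiescence genes and S100 proteins have medians above 0.5, the 92 genes of ribosome biogenesis form a narrow cloud left of 0, and nuclear-encoded respiratory chain and glycolysis genes centre on 0.

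Several stretches of sequence (RefSeq, GRCm38.p6) show motifs that transcription factors of these programmes are known to bind, upstream of or at the start site of genes described below. In Cish, Samhd1 and Irgm2 the capitals mark TTCNNNGAA, the palindrome bound by STAT factors downstream of cytokine receptors, and in Txnip they mark GTAAACA, bound by FOXO factors, which act in quiescent T cells. Cish is shown as 30 bases at chr9:107296654-107296683 (plus strand), where the motif occurs 2 times, at the RefSeq start site and 11 bases after it. Samhd1 is shown from chr2:157135097-157135346 (minus strand), Irgm2 from chr11:58214727-58214976 (plus strand) and Txnip from chr3:96557707-96557956 (plus strand), each as the 250 bases before the start site.
Cish: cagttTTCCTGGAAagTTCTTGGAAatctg
Samhd1: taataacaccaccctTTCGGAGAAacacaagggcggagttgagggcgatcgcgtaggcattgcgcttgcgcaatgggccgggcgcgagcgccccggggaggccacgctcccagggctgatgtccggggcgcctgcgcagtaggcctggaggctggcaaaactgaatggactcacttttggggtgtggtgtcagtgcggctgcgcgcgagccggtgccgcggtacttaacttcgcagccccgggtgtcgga
Irgm2: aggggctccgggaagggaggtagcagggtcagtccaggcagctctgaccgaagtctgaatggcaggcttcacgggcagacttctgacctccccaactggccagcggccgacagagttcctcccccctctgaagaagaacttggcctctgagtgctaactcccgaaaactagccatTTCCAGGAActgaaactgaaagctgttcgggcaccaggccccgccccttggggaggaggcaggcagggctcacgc
Txnip: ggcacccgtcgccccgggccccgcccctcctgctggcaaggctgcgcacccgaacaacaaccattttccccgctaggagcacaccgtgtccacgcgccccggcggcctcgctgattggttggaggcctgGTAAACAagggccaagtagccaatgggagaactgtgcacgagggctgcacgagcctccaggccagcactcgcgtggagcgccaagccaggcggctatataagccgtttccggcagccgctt
These 4 were picked after the matches were known. A window of 250 bases before to 50 bases after the start site was available for 6935 of the genes tested, and the motifs were searched on both strands. The STAT motif lay in 7.01% of these windows, in 7.96% of the genes called higher and 8.22% of those called lower; it was in 10 of the 23 interferon-stimulated genes with a window (43.5%). The FOXO motif was in 2.49% of all windows, 4.50% of the higher and 1.37% of the lower genes, and in 4 of 23 genes of the quiescence list (17.4%). The CACGTG E-box, a site of MYC, was in 17 of the 78 windows of ribosome biogenesis genes (21.8%, against 11.4% of all) and in 0 of the 14 of them called lower, and the STAT motif was in 13 of the 78 (16.7%). The NFAT motif GGAAA was in 56.7% of higher, 57.5% of lower and 59.1% of all windows, AP-1 (TGACTCA or TGAGTCA) in 4.50%, 4.11% and 2.77%, TCF/LEF (CTTTGAT or CTTTGAA) in 6.23%, 6.85% and 5.94%, and KLF (CACACCC) in 11.1%, 9.59% and 7.97%. A match is a stretch of letters and not a bound site.

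Several receptors of recirculation were higher with anti-LAIR-1. Of 11 homing and chemoattractant receptors tested, 6 rose and none fell, with a list median of 0.54 against 0.00 for all genes tested. S1pr1 (chr3:115710433-115715072), the sphingosine-1-phosphate receptor that lets T cells leave lymphoid organs, was at 27.7, 14.9 and 24.2 CPM in mice 1 to 3 with isotype and at 74.2, 90.9 and 95.5 CPM with anti-LAIR-1. Every anti-LAIR-1 library was above every isotype library (log2 difference 1.99 ± 0.16 SE, adjusted p = 1.74e-06). Selplg, a ligand for adhesion to vessel walls, was at 51.7, 44.8 and 47.7 CPM with isotype and 84.0, 91.7 and 98.9 CPM with anti-LAIR-1. Its groups did not overlap, and it rose by 0.94, S1pr4 by 0.91, the chemokine receptor Cxcr4 by 1.18 and Ccr9 by 0.54. Of the 5 that did not pass, 3 had a negative difference, among them Ccr7, the chemokine receptor for entry into lymph nodes (-0.19 ± 0.08, adjusted p = 0.214), which is named here after its values were seen. Leaving out 1 mouse left 5 or 6 members called.

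Some genes of adhesion and motility rose too. Of 20 integrins and adhesion molecules, 6 rose (Cd2, Cd47, Pecam1, Itga4, Itgb7 and Itgae) and 1 fell (Amica1, from 9.28 ± 0.88 to 3.81 ± 0.72 CPM). Cd2, which binds ligands on partner cells, went from 166 ± 16.5 to 247 ± 8.71 CPM (SD, n = 3 mice). In the actin cytoskeleton list, 16 of 69 rose and none fell, and 55 of the 69 had a positive difference (median 0.16). Coro1a, which encodes an actin regulator needed for T cell migration, was at 150, 136 and 126 CPM with isotype and at 231, 226 and 217 CPM with anti-LAIR-1. Rac2, a small GTPase of blood cells, was at 104, 108 and 98.5 CPM against 161, 188 and 191 CPM. For both genes the ranges stood apart (Coro1a 0.72 ± 0.08, adjusted p = 3e-05; Rac2 0.80 ± 0.09, adjusted p = 3.06e-05). Cnn2 (0.81) and the thymosin Tmsb10 (0.62) made up the 4 of lowest p in the list. Without mouse 1 the counts of higher genes were 9 for actin and 3 for integrins. Of 8 S100 proteins and annexins, all had a positive difference and 3 were called: S100a10 rose by 0.98, Anxa7 by 0.55 and S100a11 by 0.53.

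Outside the lists, 40 called genes were put together after their values were seen as small GTPase regulators and cytoskeletal linkers. Of these 36 were higher, where 67.1% of all called genes were higher. Arhgef18, an exchange factor for small GTPases, was at 12.3, 8.18 and 9.35 CPM with isotype and at 25.5, 31.2 and 37.5 CPM with anti-LAIR-1, 1.69 ± 0.19 higher on the log2 scale (adjusted p = 4.41e-05). Arhgef1, which couples heterotrimeric G proteins to a small GTPase, rose by 0.75, Fam65b, an inhibitor of a small GTPase in T cells, by 0.99 and the spectrin-binding adducin Add1 by 0.98. The 4 that fell were Myo10, Kif5b, Sept11 and Arhgap17. A second such group, G protein and cyclic nucleotide signalling, had 10 higher and 1 lower (Gpr65, a proton-sensing receptor, which fell by 0.40). It held Gnai2 (0.45), the inhibitory G protein subunit through which chemoattractant receptors signal, the receptor kinase Grk6 (0.43), the adenylyl cyclase Adcy7 (1.42) and the phosphodiesterase Pde2a (1.57).

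**Figure D3:**
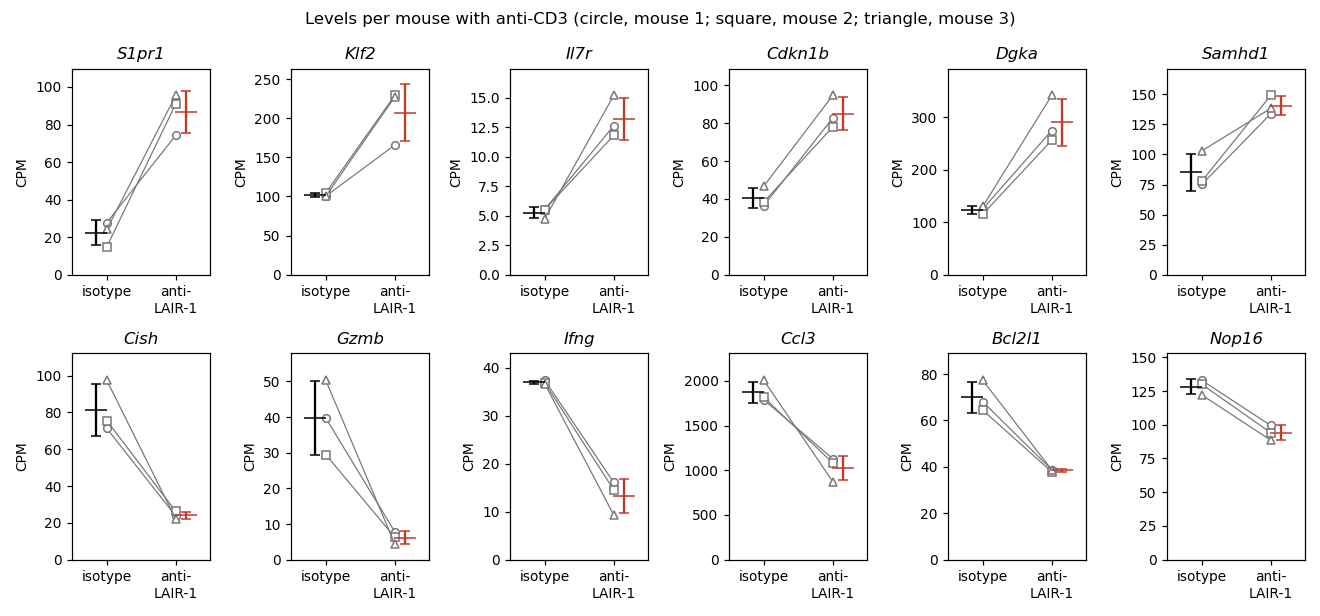
Levels of 12 genes in CPM (y axis, from 0) with isotype and with anti-LAIR-1 in CD3-stimulated cells; each symbol is 1 library, lines join the libraries of 1 mouse, and the bars beside them are the mean ± SD of 3 mice. In all 12 genes the 3 lines run the same way and the groups do not overlap: S1pr1, Klf2, Il7r, Cdkn1b, Dgka and Samhd1 go up, and Cish, Gzmb, Ifng, Ccl3, Bcl2l1 and Nop16 go down.

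Several genes that hold T cells at rest were higher. Of 24 quiescence and growth restraint genes, 9 rose and none fell (median 0.51). Cdkn1b (chr6:134920401-134925513), which encodes the cyclin-dependent kinase inhibitor p27, was at 36.5, 38.5 and 46.8 CPM with isotype and 82.7, 78.0 and 94.7 CPM with anti-LAIR-1. All 3 anti-LAIR-1 libraries were above all 3 isotype libraries (1.07 ± 0.10, adjusted p = 1.22e-05). Ypel3, a growth-suppressing gene, rose by 1.34, Ccng2, a cyclin that restrains the cycle, by 1.27, Txnip, which limits glucose uptake, by 0.83, Pik3ip1, an inhibitor of PI3K, by 1.21, and Slfn1 by 0.78. Btg2 was called (0.35) but its groups overlapped, and without the mouse block its adjusted p was 0.0885. Leaving out mouse 1 or mouse 2 left 5 or 6 called. A further 13 called genes outside the lists, grouped after their values were seen, act in catabolism, stress or growth restraint and all rose, among them the mitophagy receptor Bnip3l (0.67), the transcriptional repressor Hbp1 (0.75) and Klf6 (0.45).

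Transcription factors of the naive state rose in 9 of 23 cases and fell in none (median 0.20). Klf2 (chr8:72319033-72321656), which drives S1pr1 in resting T cells, was at 100, 105 and 100 CPM with isotype and 166, 229 and 227 CPM with anti-LAIR-1. The 3 isotype libraries lay within a few CPM of each other and all below the anti-LAIR-1 libraries (1.02 ± 0.09, adjusted p = 1.1e-05). Lef1 rose by 0.68, its relative Tcf7 by 0.64, Klf13 by 0.48, the E protein inhibitor Id3 by 0.41, Bcl6 by 1.01 and Myb by 0.61. This list shrank to 3 called without mouse 1, to 7 without mouse 2 and to 6 without mouse 3. Of 11 effector-fate factors, 9 had a negative difference and 1 was called (9.09%, against 6.29% of all genes tested). It was Eomes, from 42.0 ± 4.66 to 31.5 ± 4.44 CPM, with adjusted p = 0.0428 with and 0.0964 without the mouse block.

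Of 33 genes of the CD3 complex and molecules next to it, 8 rose, 2 fell and 23 were not called. A positive difference was found for 24 of the 33 (median 0.16). Cd3g was at 336, 333 and 352 CPM with isotype and 451, 518 and 514 CPM with anti-LAIR-1. Cd3e rose by 0.45, Cd3d by 0.44, Cd28 by 0.38, the adaptors Skap1, Lat and Fyb and the kinase Lck made up the rest, and Lck missed the threshold without the mouse block (adjusted p = 0.063). Malt1, a protease of antigen receptor signalling, was among those that fell, from 31.3 ± 4.83 to 21.0 ± 1.81 CPM, and passed in none of the fits that left out 1 mouse. Of 43 genes that dampen TCR signals, 4 rose (9.30%, against 6.29% called among all genes) and none fell, with a median of 0.06. Dgka, which removes diacylglycerol, was at 125, 115 and 130 CPM with isotype and 275, 256 and 341 CPM with anti-LAIR-1, and had the lowest p of all genes named (1.23 ± 0.08, adjusted p = 4.67e-07). The other 3 were Rasa3, which switches off Ras and Rap (1.47), Rgs10, which shortens G protein signals (0.83), and Csk, the kinase that inhibits Lck (0.39).

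Receptors for cytokines rose in 5 of 22 cases. Il7r (chr15:9505788-9530176), the receptor of naive T cell survival, was at 5.55, 5.52 and 4.75 CPM with isotype and 12.6, 11.8 and 15.2 CPM with anti-LAIR-1, with no overlap (1.33 ± 0.23, adjusted p = 0.00217). Ifngr1 (0.69), Ifnar1 (0.66), Il17ra (0.58) and Tgfbr2 (0.45) rose too, Tgfbr2 with an adjusted p of 0.0673 without the mouse block. Il2ra, the high-affinity IL-2 receptor chain, was the 1 that fell, from 286 ± 24.2 to 205 ± 5.65 CPM. Leaving out mouse 1 or mouse 2 left 2 receptors called higher, and leaving out mouse 3 left 3. Among 11 JAKs and STATs 2 rose, with Jak1 higher by 0.30, and none was called higher without mouse 1.

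Of 32 interferon-stimulated genes tested, 10 rose, none fell and 28 had a positive difference (median 0.36, and 0.46, 0.57 and 0.44 in the 3 mice). Samhd1, which degrades deoxynucleotides, was at 75.1, 77.7 and 103 CPM with isotype and 134, 149 and 138 CPM with anti-LAIR-1. Irgm2, an immunity-related GTPase, was at 19.6, 17.2 and 20.5 CPM against 28.3, 29.4 and 33.4 CPM, and Rtp4 at 1.46, 1.23 and 2.61 CPM against 4.77, 6.63 and 7.30 CPM. All 3 genes were higher in each mouse, with log2 differences of 0.72, 0.67 and 1.81. Trim30a rose by 0.79. The calls were thin: 2 were made without mouse 1, 4 without mouse 2, 8 without mouse 3 and 2 by DESeq2's Wald test with the block, and Irf1, Gbp2 and Parp9 missed the threshold without the block (adjusted p = 0.0654, 0.0555 and 0.122). Outside the list, 14 related genes were grouped after their values were seen; 12 rose, such as Pyhin1 (0.89), Gbp8 (0.96) and Lgals9 (0.82), and 2 fell, Gbp5 (from 4.81 ± 1.65 to 1.76 ± 0.30 CPM) and Plscr1 (from 6.69 ± 1.83 to 2.62 ± 1.10 CPM). Ifng, whose protein induces many of these genes, moved the other way in the same libraries. Guanylate-binding, Trim30 and Slfn genes belong to families of near-identical copies, so that reads of one copy may have been discarded or assigned to another.

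Smaller lists on the higher side gave fewer calls. In a list of 10 inhibitory receptors and related surface molecules, 5 had a positive and 5 a negative difference. Klrd1 (CD94) rose from 76.5 ± 12.3 to 137 ± 15.2 CPM and the surface enzyme Nt5e (CD73) from 41.5 ± 6.09 to 65.2 ± 6.28 CPM. The receptors Pdcd1 (-0.16), Btla (-0.12), Cd160 (0.01) and Lilrb4 (-0.47) were not called. Of 7 Ly6 and GPI-anchored proteins, Cd52 (0.61), Ly6e (0.52) and the complement regulator Cd55 (1.91, at 0.77 to 2.25 CPM with isotype) rose, and Cd24a (-0.71) and Thy1 (-0.33) were lower. Of 18 glycosylation genes, 3 rose: Cmah (0.96), St6gal1 (0.72) and B4galt1 (0.54, adjusted p = 0.0794 without the block). Of 22 ion channels and purinergic receptors, 3 rose, namely Kcnn4 (0.47), Orai2 (0.84) and Trpv2. Of 18 genes of MHC class I and peptide loading, 2 rose: Psmb8, a proteasome subunit of antigen processing, by 0.44 and the peptide transporter Tap2 by 0.62. Of 43 lysosome and autophagy genes 2 rose (4.65%, against 6.29% called among all genes), one being Laptm5, which promotes degradation of the TCR (0.60). Of 24 mRNA decay factors, Zfp36 and Zfp36l2 rose by 0.45 and 0.41 (8.33% called, against 6.29%), and the list's median was 0.01. Of 23 costimulatory molecules, Tnfrsf25 (1.51) and Tnfrsf26 (0.79) rose and Slamf7 (-0.44) and Tnfsf11 (-0.77) were lower.

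Transcripts of several effector cytokines were lower with anti-LAIR-1. Of 11 effector cytokines, 4 fell and 1 rose (median -0.34). Ifng (chr10:118441046-118445892) was at 37.4, 36.8 and 36.7 CPM with isotype and at 16.1, 14.6 and 9.32 CPM with anti-LAIR-1. All 3 isotype libraries were above all 3 anti-LAIR-1 libraries (-1.48 ± 0.16, adjusted p = 3.73e-05). Il2, the T cell growth factor, was at 14.6, 17.2 and 16.4 CPM against 8.89, 6.15 and 7.90 CPM. Lif was at 5.55, 3.89 and 9.35 CPM against 1.03, 0.324 and 1.62 CPM. In mouse 2 the Lif level with anti-LAIR-1 was below that of 3 counts (0.484 CPM in that library). Lta, lymphotoxin alpha, fell by 0.60. Il16, which is made as a precursor in resting lymphocytes, was the 1 that rose, from 7.52 ± 0.34 to 16.1 ± 2.43 CPM.

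Of 6 chemokines, 4 fell. Ccl3 (chr11:83647844-83649355) was at 1790, 1817 and 2007 CPM with isotype and 1131, 1083 and 875 CPM with anti-LAIR-1 (-0.87 ± 0.09, adjusted p = 1.94e-05). Ccl4 went from 4742 ± 893 to 3119 ± 63.1 CPM, Ccl9 from 33.9 ± 2.62 to 16.7 ± 6.23 CPM, and Xcl1, the most abundant of them, from 16602 ± 1101 to 13238 ± 719 CPM. All 4 passed with any 1 mouse left out; Ccl4 missed the threshold in DESeq2's Wald test with the block. Ccl3 and Ccl4 are neighbouring, similar genes whose reads may have been shared or discarded.

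Of 14 cytotoxic granule genes, 4 fell. Gzmb (chr14:56258838-56262260), which encodes granzyme B, was at 39.7, 29.5 and 50.3 CPM with isotype and 7.86, 6.31 and 4.46 CPM with anti-LAIR-1. No anti-LAIR-1 library came near an isotype library (-2.63 ± 0.21, adjusted p = 1.74e-06). Nkg7, a granule membrane protein, fell by 0.69, and the granzyme-inhibiting serpins Serpinb9 and Serpinb6b fell by 0.64 and 0.62. Each of the 4 passed with any 1 mouse left out and in DESeq2's Wald test.

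Feedback genes of cytokine signalling had 2 calls among 13, both lower. Cish (chr9:107296026-107302784), an inhibitor of STAT5 signalling that STAT5 itself induces, was at 71.3, 75.5 and 97.4 CPM with isotype and 23.7, 26.2 and 22.1 CPM with anti-LAIR-1. The groups lay far apart (-1.74 ± 0.13, adjusted p = 1.2e-06). The 2 STAT motifs printed above lie at the RefSeq start site, which is downstream of the first base of the GENCODE gene span given here. Pim1, a kinase gene of the same pathway, fell by 0.82, with isotype levels of 382, 773 and 514 CPM that spread widely and anti-LAIR-1 levels of 339, 281 and 293 CPM. Bcl2l1, which encodes the survival protein BCL-XL, was at 68.0, 64.4 and 77.3 CPM against 38.8, 37.9 and 38.7 CPM. It was the only call among 24 BCL2 family and cell death genes (4.17%, against 6.29% of all genes tested). In the cell cycle list of 40 genes, 2 fell (5%), also below the share of all genes. They were the cyclin Ccnd2 (from 991 ± 142 to 606 ± 94.2 CPM) and Orc2 (by 0.37).

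Of 38 inducible transcription factors and related regulators, 3 fell and 3 rose. Atf3 went from 19.4 ± 5.52 to 9.96 ± 1.73 CPM, Irf8 fell by 0.55 although 1 isotype library lay within the anti-LAIR-1 range, and Nfkb1 was at the edge of the threshold (-0.28, adjusted p = 0.0495). Jund (0.29), Egr1 (0.32) and Tnip1 (0.53), a regulator that is not itself a transcription factor, rose. Jund and Egr1 missed the threshold without the mouse block (adjusted p = 0.059 and 0.0801). Cd69, an early activation marker, did not pass: 549, 524 and 490 CPM with isotype and 539, 494 and 451 CPM with anti-LAIR-1, with overlapping groups (-0.08 ± 0.06, adjusted p = 0.573).

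Transcripts of ribosome assembly genes were lower by a small and even amount. Of 92 genes of ribosome biogenesis and the nucleolus, 14 fell, none rose, and 88 had a negative difference, with a median of -0.16 (-0.13, -0.20 and -0.18 in the 3 mice) and a lowest value of -0.45. Nop16 (chr13:54584185-54590090), a nucleolar assembly factor, was at 133, 130 and 122 CPM with isotype and 99.5, 94.2 and 88.6 CPM with anti-LAIR-1. Its libraries did not overlap (-0.45 ± 0.08, adjusted p = 0.0033). Nop58 and Dkc1, proteins of the small nucleolar RNPs that modify ribosomal RNA, fell by 0.35 and 0.36, nucleolin (Ncl) by 0.30 and the nucleolar GTPase Gnl3 by 0.30. Without mouse 1 the count was 3, without mouse 2 it was 10 and without mouse 3 it was 11. Outside the list 9 further genes of the nucleolus and of polymerases I and III, grouped after their values were seen, all fell, such as Mphosph10 (-0.49), Esf1 (-0.45), Gtpbp4 (-0.44) and Twistnb, a polymerase I subunit (-0.40).

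Other lists of growth lay a little below 0 with few calls. The share called was 4.92% of translation factors, 5.56% of chaperones, 5.26% of aminoacyl-tRNA synthetases and 4% of splicing factors. Each share is below the 6.29% of all genes tested. Translation factors had a median of -0.09 with 3 of 61 lower (Eif2s2, Eif3a and Eif5b), chaperones -0.11 with 2 of 36 (Hsp90aa1, which fell by 0.34, and Pfdn2), aminoacyl-tRNA synthetases -0.13 with 1 of 19 (Sars, whose groups overlapped and whose adjusted p was 0.18 without the block), and splicing factors -0.09 with 2 of 50 (Hnrpll and Snrpd2). Nucleotide synthesis had a median of -0.13 with 2 of 29 lower, the purine enzyme Pfas (-0.43) and the pyrimidine enzyme Cad (-0.28, adjusted p = 0.068 without the block), and Ctps2 higher (1.09). In several metabolic lists the share called was near or below the 6.29% of all genes: 2 of 29 genes of amino acid transport and one-carbon metabolism fell (Slc7a1, -0.30, and Bcat1, -0.33), 1 of 12 of polyamine metabolism (Sms, -0.38) and 1 of 34 of sterol and fatty acid synthesis (Idi1, -0.51). Of 27 genes of the PI3K, AKT and mTOR list, Akt1 rose (0.27) and Rps6kb1 fell (-0.36), a share of 7.41%. By contrast the 82 cytosolic ribosomal proteins had a median of 0.03, with 3 lower (3.66%), Rpl37a and Rps27l among them. The 21 glycolysis genes had a median of 0.01 with none called. Among the mitochondrially encoded genes 1 was called, mtNd4l (-0.40), which overlaps its neighbour mtNd4 (0.13, not called), so that the split of reads between them is uncertain.

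Genes of chromatin, transcription and pre-mRNA processing outside the lists, grouped after their values were seen, numbered 38, of which 27 fell and 11 rose. Supt16, a subunit of the FACT histone chaperone, went from 18.2 ± 3.63 to 8.57 ± 2.05 CPM. The nuclear pore protein Tpr fell by 0.61, the splicing factor Luc7l3 by 0.42, the DNA methyltransferase Dnmt3a by 0.38 and topoisomerase Top1 by 0.32. The histone methyltransferase Setd1b rose by 0.70.

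**Figure D4:**
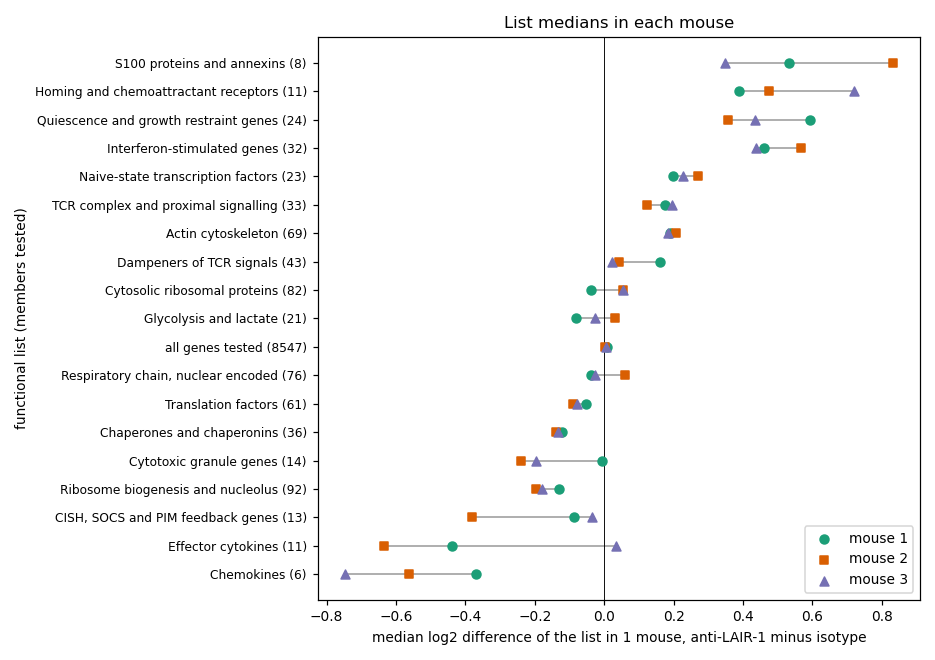
The x axis is the median log2 difference, anti-LAIR-1 minus isotype, of a functional list in 1 mouse; symbols mark mice 1 to 3 and a grey line spans them, with all 8547 genes tested as reference. Homing, quiescence, interferon and actin lists lie above 0 in each mouse and ribosome biogenesis and chemokines below 0 in each, while the effector cytokine median is above 0 in mouse 3 (0.04).

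By the rule for the largest changes, the 12 highest called genes read at 50 counts or more on average were S1pr1, Cnp, Arhgef18, Rasa3, Ypel3, Il7r, Ccng2, Kbtbd11, Sfxn3, Fam111a, Dpp4 and Dgka, and the 12 lowest were Gzmb, Cish, Ifng, Supt16, Il2, Irak4, Ccl9, Atf3, Lad1, Tnnt2, Agpat4 and Ccl3. Cnp, an enzyme of cyclic nucleotides, was at 8.76, 3.89 and 7.82 CPM with isotype and 21.0, 23.5 and 26.3 CPM with anti-LAIR-1. Dpp4 (CD26), a surface peptidase of T cells, went from 10.3 ± 2.53 to 24.2 ± 4.34 CPM. Lad1, an anchoring filament protein of epithelia, was read at 155, 123 and 136 CPM against 72.8, 63.3 and 79.5 CPM. Irak4, a kinase of Toll-like receptor signalling, went from 13.2 ± 0.82 to 6.27 ± 0.45 CPM. Another gene is annotated over the last 500 bases of Cnp, Dgka, Fam111a, Supt16, Il2, Irak4, Il16, Coro1a, Txnip and Xcl1, and whether counting used the strand is not given in the sources used here, so part of their reads may belong to the neighbour.

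The unstimulated libraries show where these levels stand. On a scale set over all 12 libraries, S1pr1 was at 1138 CPM without anti-CD3 and isotype, 23.2 CPM with anti-CD3 and isotype, and 90.8 CPM with anti-CD3 and anti-LAIR-1. Il7r was at 327, 5.48 and 13.8 CPM in the same order, and Dgka at 1543, 129 and 304 CPM. For each of the 12 highest genes the CD3-stimulated libraries were below the unstimulated ones with either antibody. At the other end Ccl3 was at 5.35, 1947 and 1076 CPM and Cish at 5.84, 84.7 and 25.1 CPM. Without anti-CD3, anti-LAIR-1 gave 0 calls in edgeR among 8925 genes (0%), with 483 at an unadjusted p under 0.05 (5.41%). That test came from a fit over 12 libraries, in which the comparison with anti-CD3 gave 508 calls. The unstimulated libraries were shallower, at 1781218 to 3589194 counts against 3478294 to 7725545 with anti-CD3. Whether depth limited the calls without anti-CD3 was not tested. The difference between the effects with and without anti-CD3 was itself called for 211 genes (2.36%), 188 of them positive (2.11%) and 23 negative (0.258%). Its libraries include those of the comparison above, so its calls are not separate evidence.

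**Figure D5:**
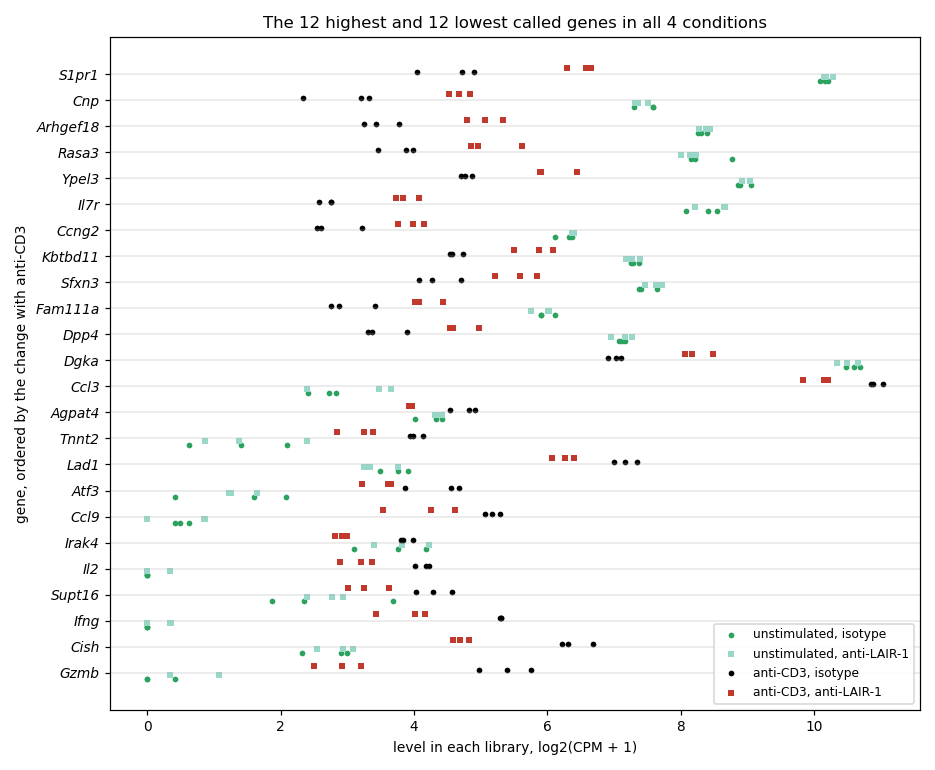
Each row is 1 of the 12 highest or 12 lowest called genes, ordered by its change with anti-CD3; points are single libraries placed by level, log2(CPM + 1), in the 4 conditions of 3 mice each. For the 12 highest genes the red squares (anti-CD3 with anti-LAIR-1) lie between the black (anti-CD3 with isotype) and the green points (unstimulated); for most of the 12 lowest they lie to the left of the black points and to the right of the green, except Irak4 and Agpat4, whose red squares lie to the left of most others.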

How the data were processed

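The authors barcoded RNA of each well with CEL-seq primers, sequenced it on a NextSeq 500, aligned read 2 to the mm10 transcriptome with BWA MEM, dropped reads that mapped equally well to several places and deposited raw counts per gene symbol. Whether reads with one molecular identifier were collapsed is not given in the sources used here, so limits from 3 counts cover counting error only. Of 14323 symbols, 14273 were matched to GENCODE M21 (GRCm38, the build of mm10) and RefSeq names.

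Counts were tested with edgeR 4.0.16 (R 4.3.3): TMM scaling, filterByExpr, mouse as a block, the quasi-likelihood test and Benjamini-Hochberg adjustment over the 8800 genes tested, at 0.05. Only the 8547 protein-coding ones were then counted and described. CPM is scaled by TMM over the 6 libraries; per-mouse log2 differences used a prior count of 2. The block follows the labels' mouse numbers, whose libraries share an animal. Taking each library minus its group mean, the correlation across genes was 0.0345, 0.0639 and 0.106 within mice 1 to 3 and -0.0343 on average between mice. Libraries of a group differed by more than counting noise, with a chi-square per gene of 3.86 to 5.62. The difference of the anti-LAIR-1 effect with and without anti-CD3 was fitted over 12 libraries (9223 genes tested). With 3 mice a permutation test of 1 gene could not pass 0.05 and was not used.

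The comparison, the 44 lists and the tests were chosen with earlier results of these data known. Genes were named by rule: the 12 highest and 12 lowest log2 differences among called genes with one direction in all mice and a mean of at least 50 counts; up to 4 called genes of lowest p per list and direction, or all where 5 or fewer; and Lair1, Cd69, Il2ra, Il2, Ifng and Klf2. Some genes that the rule would name are not reported here. Other called list members and the genes of the 6 later groups were named after their values were seen. Promoter windows came from RefSeq tables; where a gene had several, the most upstream was used.

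Alternatives were no block, DESeq2 1.42.0 with and without the block, DESeq2's size factors or the upper quartile in edgeR, no filter, a minimum of 10 counts per library, thinning to the smallest library, leaving out mitochondrial genes and Rn45s, all 12 libraries in the fit, and each mouse left out. The fits were tested on simulated data.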

Additional observations from a re-analysis of the deposited data

Results flagged for a closer look

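The anti-LAIR-1 effect itself differed with and without anti-CD3 for 211 of 8925 genes (2.36%) by the interaction term of edgeR's quasi-likelihood test over 12 libraries. The difference was positive for 188 (2.11%) and negative for 23 (0.258%). The effects with and without anti-CD3 share no library, but the interaction holds the CD3-stimulated comparison already described and is not independent of it. Of the 202 genes with values in the tables behind the text that could be tested, 84 passed, 72 with a positive and 12 with a negative difference. Values are log2 differences of the effect, with anti-CD3 minus without. Among homing and adhesion genes it was 1.92 for S1pr1, 0.89 for S1pr4, 0.90 for Selplg, 1.01 for Cxcr4, 0.57 for Cd2, 0.91 for Pecam1, 1.10 for Itgb7 and 1.17 for Dpp4. Among actin, small GTPase and calcium-binding genes it was 1.63 for Arhgef18, 0.84 for Arhgef1, 0.85 for Add1, 0.88 for Fam65b, 0.75 for Arhgdib, 0.88 for Cnn2, 0.66 for Coro1a, 0.84 for Dock2, 1.06 for Gmfg, 0.92 for Lsp1, 0.48 for Myh9, 0.90 for Rac2, 0.81 for Stk10, 0.69 for Tmsb10, 1.13 for S100a10, 0.66 for S100a11 and 0.74 for Anxa7. Among quiescence, naive-state and catabolic genes it was 1.07 for Cdkn1b, 1.32 for Ypel3, 1.11 for Ccng2, 0.83 for Slfn1, 0.71 for Txnip, 1.03 for Pik3ip1, 1.05 for Tsc22d1, 0.90 for Tsc22d3, 0.69 for Klf2, 0.64 for Lef1, 0.70 for Tcf7, 0.80 for Myb, 0.75 for Bnip3l and 0.79 for Hbp1. Among genes of the CD3 complex, its dampeners and G protein signals it was 0.50 for Cd3e, 0.57 for Cd3g, 0.46 for Cd28, 0.84 for Skap1, 0.53 for Csk, 1.32 for Dgka, 1.74 for Rasa3, 0.93 for Rgs10, 1.12 for Adcy7, 1.48 for Pde2a, 0.78 for Orai2 and 0.51 for Akt1. Among cytokine receptor, interferon and antigen-processing genes it was 1.14 for Il7r, 1.16 for Il16, 0.57 for Samhd1, 0.82 for Ifi27l2a, 0.76 for Lgals9, 0.84 for Pyhin1 and 0.58 for Psmb8. Among other surface, lysosomal and metabolic genes it was 0.59 for Cd52, 1.68 for Cd55, 0.92 for Klrd1, 0.76 for Nt5e, 1.59 for Tnfrsf25, 0.86 for Tnfrsf26, 0.92 for Cmah, 0.98 for Ctps2, 0.53 for Laptm5, 1.92 for Smpdl3a, 1.90 for Cnp, 1.26 for Fam111a, 1.28 for Kbtbd11 and 1.13 for Sfxn3. It was negative, at -0.97 for Agpat4, -1.19 for Bcl2l1, -1.53 for Ccl3, -1.15 for Ccl4, -0.58 for Ccnd2 and -1.90 for Cish. Negative values were also found for Hnrpll (-1.05), Nkg7 (-0.74), Pfas (-0.82), Xcl1 (-0.74), Mki67ip (-0.71) and Tpr (-0.71). Without anti-CD3 the chemokine list had a median of 0.41, with no member called. Ccl3 had 17, 15 and 8 counts there with isotype and 42, 16 and 38 with anti-LAIR-1, not scaled for depth. The isotype libraries held 1781218 to 2957929 counts and the anti-LAIR-1 libraries 3547294 to 3589194. The values for Ccl3, Ccl4 and Xcl1 therefore also take in a difference in unstimulated cells that was not called.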

How the results depend on the processing

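Of the 200 called genes with values in the tables behind the text, none changed direction under any alternative. Leaving out mouse 1, 2 or 3, 100, 138 or 154 of the 200 kept their call and 100, 62 or 46 did not. In DESeq2's Wald test with the block 118 kept it and 71 did not, the rest having no adjusted p. Without the mouse block 187 kept their call and 13 did not, and 496 genes were called in all (335 higher, 161 lower), 465 of them shared with the blocked fit. Counts moved by over 1.5 times with DESeq2's Wald test with the block (221 called, 146 higher, 75 lower), with no filter on low counts (271 lower) and with all 12 libraries in the fit (109 lower); the cause was not tested. Leaving out 1 mouse gave 226 to 439 called, 159 to 282 higher and 67 to 157 lower, with fewer libraries in each fit. For the difference of the effect with and without anti-CD3, thinning gave 123 called, 111 higher and 12 lower, no filter gave 50 lower, and leaving out 1 mouse gave 75 to 94 called, 66 to 88 higher and 3 to 9 lower. With 1 mouse left out of that fit each group held 2 libraries. The fit of that difference with no replicate block gave 186 called. No scaling moved the median of all genes by over 0.1 on the log2 scale. Medians near 0 changed sign for 9 lists under some alternative: inhibitory receptors, mRNA decay, Ly6 and GPI-anchored proteins, cell death, glycolysis, polyamines, cytosolic ribosomal proteins and both respiratory chain lists. Depth limits what can be seen of rare transcripts: 3 counts were 0.388 to 0.862 CPM, and 60 of the 538 called genes had a mean under 50 counts.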
